A study of Mus musculus with 16 samples.

Results

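The genes described here encode the initiation and elongation factors of cytoplasmic translation in the mouse, with their kinases, binding proteins and modifying enzymes. The choice was made by symbol, with earlier results of these data known. It took protein-coding genes of GENCODE M21 whose symbol begins with Eif1 to Eif6 or with Eef1 or Eef2, and left out pseudogenes. This gave 68 of 22196 genes measured, of which 64 passed the filter on low counts and were tested. Eif2s3y and Eif4e1b had 0 counts in all 16 libraries, and Eif5a2, the second eIF5A gene, had 4 counts in all. Eef1a2, the second eEF1A gene, had 828 counts in all, of which 792 came from a single library. For 13 of the 64 tested members over 50% of the coding 31-base words also occur in other listed genes, or over 50% in transcripts that the files do not list. Their counts are uncertain: Eef1a1, Eef1akmt4, Eef1g, Eif1, Eif2s1, Eif2s2, Eif2s3x, Eif3j1, Eif3j2, Eif3m, Eif4a1, Eif4e and Eif4ebp3. These shares were not combined, and Eif4a3, with 41.52% and 42.01%, is not among the 13.

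The RNA came from the whole inguinal mammary gland of lactating mice, at mid-lactation by the series title, with an age label of postnatal day 16. The study crossed diet, NCD or HFD (high fat diet during lactation), with treatment, which was metformin, a glucose-lowering biguanide, or its control. Each of the 4 groups, NCD control, NCD metformin, HFD control and HFD metformin, had 4 libraries, named here by group and number. The labels leave NCD unexpanded, and the sources used here give no strain, genotype, or dose and route of metformin. Whether the 4 libraries of a group are 4 animals is not stated, so the p-values speak only to the spread among the libraries and this may be technical.

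Totals ranged from 8649316 to 39156617 counts per library, with HFD control 4 the lowest. The defining markers of secretory epithelium were abundant, with a summed level of 509152 to 568486 TPM, a transcript's share of all transcripts after division by length, over 9 genes and 0 of 9 called for metformin. None of the markers in 9 lists, 8 of them for cell types and 1 for the cell cycle, was at 0 in all 16 libraries. NCD control 3 held skeletal muscle transcripts, at 1062 TPM summed over 10 genes against at most 29.1 in each other library, and the highest adipocyte level, 1314 TPM. HFD metformin 4 had the highest summed cell cycle level, 12.5 TPM. Of 6 fibroblast markers 2 and of 10 muscle markers 1 were called lower, and of 6 cell cycle markers 1 was called higher with metformin averaged over diets, and the part of these cell types in the results below was not tested. In bulk RNA, fewer cells of a type and less RNA per cell cannot be told apart.

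Translation begins when eIF2, bound to GTP, carries the initiator tRNA to the small ribosomal subunit, which eIF3 scaffolds and eIF1 and eIF1A hold open for scanning. The eIF4 factors bring the capped mRNA, eIF5 and eIF5B complete joining of the large subunit, and eIF2B recharges eIF2 with GTP, a step blocked when a stress kinase phosphorylates the eIF2 alpha subunit. In elongation eEF1A delivers aminoacyl-tRNA, the eEF1B subunits recharge it, eIF5A relieves stalled peptide bonds and eEF2 moves the ribosome along, as it must at high rate in a gland that secretes milk protein.

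A few bases of these genes show the switches that the results below refer to. The first line is part of the coding sequence of Eif2s1, which encodes the eIF2 alpha subunit, with the codon of the serine that the stress kinases phosphorylate in capitals. This is codon 52, or 51 when the start methionine is not counted, in coding bases 133 to 177 of the GENCODE M21 transcript. The next lines are Eif5a and Eif5a2, bases 127 to 171, with the codon of the lysine that is turned into hypusine (codon 50) in capitals.
Eif2s1: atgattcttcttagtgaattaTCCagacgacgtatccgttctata
Eif5a: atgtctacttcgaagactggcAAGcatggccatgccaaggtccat
Eif5a2: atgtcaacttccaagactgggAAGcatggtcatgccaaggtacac
Each window was cut with its codon in the middle. Of the reads on Eif5a and Eif5a2 in this gland, almost all fell on Eif5a.

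Many mRNAs of the translation machinery begin with a run of pyrimidines at the cap, which links their translation to mTORC1. A run of at least 8 letters C or T beginning with C was searched on the gene's strand from 20 bases before to 25 bases after the RefSeq start (GRCm38.p6), and the runs found are shown in capitals for the members that rose with metformin. Each sequence spans 35 bases before to 25 bases after the start. A match is a description of the letters, not of a cap site.
Eif2b2, chr12:85219446-85219505, plus strand: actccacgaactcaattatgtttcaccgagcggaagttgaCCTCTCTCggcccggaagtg
Eif2b5, chr16:20498782-20498841, plus strand: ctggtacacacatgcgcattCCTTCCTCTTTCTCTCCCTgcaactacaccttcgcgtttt
Eif3f, chr7:108934380-108934439, plus strand: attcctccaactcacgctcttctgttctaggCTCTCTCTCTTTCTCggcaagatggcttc
Eif3k, chr7:28981864-28981923, minus strand: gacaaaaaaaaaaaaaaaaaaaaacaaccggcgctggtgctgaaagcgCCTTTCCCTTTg
Eif3l, chr15:79075188-79075247, plus strand: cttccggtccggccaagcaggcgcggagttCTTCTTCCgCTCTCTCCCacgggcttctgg
Eif3m, chr2:105017003-105017062, minus strand: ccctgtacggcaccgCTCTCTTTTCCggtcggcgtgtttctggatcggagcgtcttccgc
Of the 52 members with a promoter entry, 13 held such a run, against 17.7% of 9676 tested genes. It was found in 6 of the 12 members with an entry that rose with metformin averaged over diets and in 5 of the 37 other tested members. Further motifs were searched on both strands in the 300 bases around each start. CACGTG, the E-box bound by MYC among others, was present in 13 of 52 members (11.6% of tested genes), CCGGAAG, an ETS motif, in 17 (20%) and CCAAT in 17 (42.6%). CCAAT was in 6 of the 12 members that rose and 10 of the 37 others. The ETS motif was in 5 of 12 and 11 of 37, and the E-box in 3 of 12 and 9 of 37. AAGATGGCG, a YY1 motif, was in 3 of 52 members (3.5% of tested genes), TGATGNAA, a C/EBP-ATF element, in 2 (2.8%) and TGACGTCA, a CRE, in 1 (3.5%).

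Levels per length differed widely among members. The scale here is TPM over effective coding length, as mean ± SD of the 4 NCD control libraries. Eef1a1, the gene of eEF1A, was highest at 660 ± 56.1 TPM, with 645, 616, 637 and 742 in the 4 libraries. Eif1 followed at 275 ± 32.8 TPM, Eef2 at 212 ± 5.60 and Eif5a at 198 ± 19.8. Eef1a1 lay above Eif1 in all 16 libraries, its lowest value being 513 TPM against a highest of 317 for Eif1. The ranges of Eef2 and Eif5a overlapped within NCD control, from 205 to 218 and from 180 to 217 TPM. Next came Eef1b2, an exchange subunit of eEF1B, at 149 ± 16.7 TPM and Eif5 at 93.0 ± 23.1. This order depends on the division by length. In CPM, which is not divided by length, the 5 eIF1 genes together had 85.1 ± 7.57 and Eef2 1468 ± 27.9 in NCD control. Of the TPM of Eif5a, 53.5 to 59.4% in NCD control was assigned to a listed transcript of 231 coding bases.

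Eif4ebp1, the repressor that binds the cap-binding protein eIF4E, stood at 80.4 ± 4.31 TPM and Eif4e itself at 15.2 ± 1.24. The ratio of Eif4e to Eif4ebp1 was thus 0.190 ± 0.0178 in NCD control. Of the TPM of Eif4e, 32.9 to 52.7% in NCD control was assigned to a listed transcript of 399 coding bases. Eif4g2, an eIF4G relative that lacks the eIF4E site, had 74.1 ± 4.94 TPM and Eif4g1, the scaffold of the cap complex, 42.0 ± 3.63. The 13 eIF3 subunits other than the near-copy Eif3j2 lay in a narrow band of TPM, from 9.20 ± 0.648 TPM for Eif3d to 32.4 ± 2.69 for Eif3k. This band depends on the division by length, since in CPM, as given below, Eif3a lay far above Eif3k. Of the TPM of Eif3b, 51.0 to 55.4% in NCD control was assigned to a listed transcript of 528 coding bases. The eIF2 alpha kinases were low, from 1.09 ± 0.315 TPM for Eif2ak2 (PKR) to 4.08 ± 0.414 for Eif2ak1 (HRI). Eef1akmt3, a lysine methyltransferase of eEF1A, was lowest among the tested members at 0.305 ± 0.154 TPM.

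**Figure D1:**
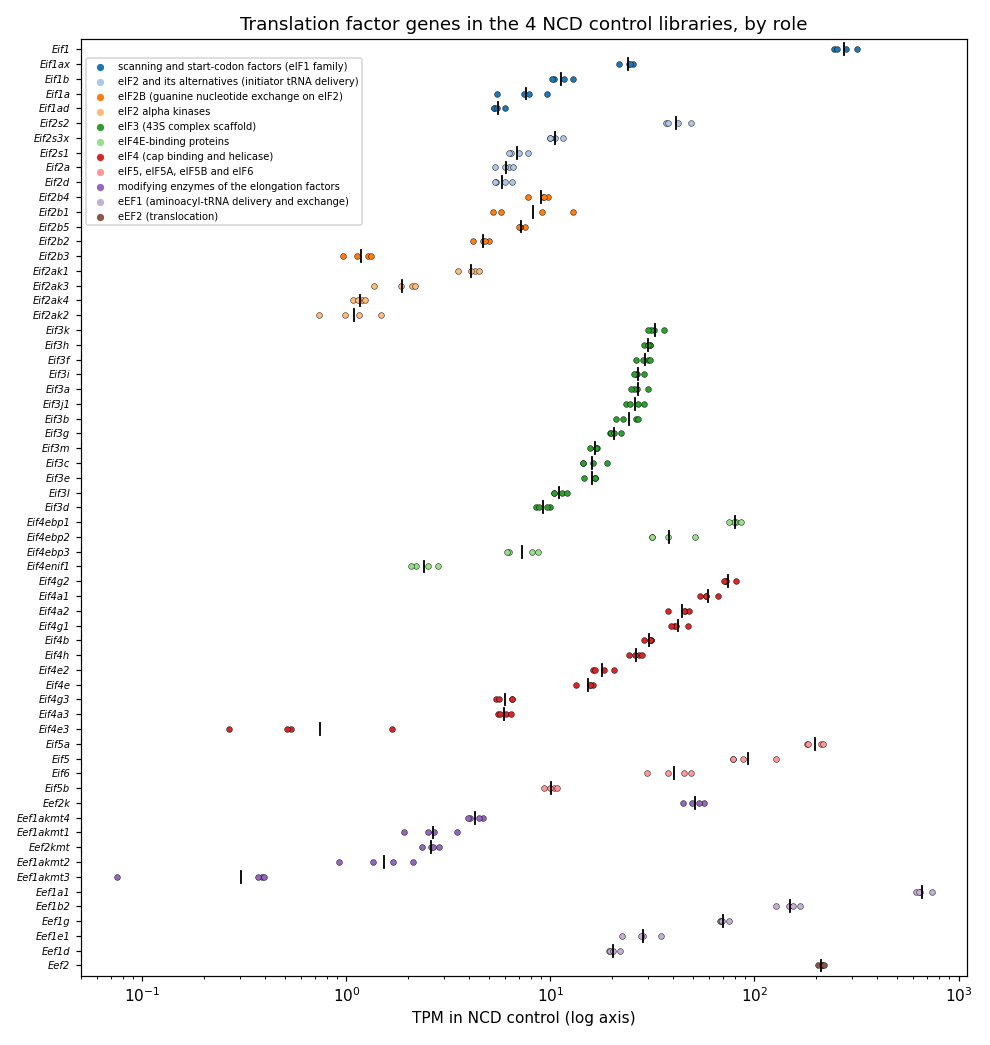
Level per coding length (TPM, log axis) of 63 translation factor genes in the 4 NCD control libraries (points, mean as a bar), ordered by role; Eef1a2, Eif2s3y, Eif3j2, Eif4e1b and Eif5a2, at or near 0 in a library, are left out. Eef1a1 is highest at 660 TPM and the 13 eIF3 subunits shown lie between 9.20 and 32.4 TPM.

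Summed over all members, NCD control had 2714 ± 115 TPM, NCD metformin 2706 ± 141, HFD control 2440 ± 146 and HFD metformin 2423 ± 213 (SD, n = 4). The summed CPM (counts scaled to library size after TMM correction), the scale of the tests below, were 6748 ± 201, 7302 ± 597, 6942 ± 421 and 7744 ± 190 in the same order. The metformin groups thus had a higher mean than their controls in CPM and not in TPM. The scales differ in what they divide by: TPM is relative to all transcripts per length, and TMM scaling sets aside the most abundant genes. As a share of all counts, with neither step, members took a mean 0.731% (NCD control), 0.756% (NCD metformin), 0.672% (HFD control) and 0.712% (HFD metformin). The ranges of these shares overlapped on each diet, and the part of each step in the difference between the scales was not tested. The 5 caseins, Wap and Lalba alone took a mean 59.8% (NCD control), 61.6% (NCD metformin), 62.3% (HFD control) and 64.5% (HFD metformin) of counts. Members' differences below are relative to the bulk of genes, and the part of the milk protein share in them was not tested.

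Metformin, averaged over the diets, raised 14 of the 64 tested members and lowered 0 (edgeR's quasi-likelihood test, Benjamini-Hochberg adjusted p under 0.05 over all 12506 genes tested). Over all genes 5.82% were called higher and 5.57% lower, so the members' 21.9% called higher lay above that background and their 0 lower below it. The median log2 fold change was 0.15 over the members and -0.01 over all genes, and 51 of 64 members had a positive sign. Of the 64 members 27 (42.2%) had an unadjusted p under 0.05, against 28.9% of all genes. The rises were small, from 1.17-fold for Eif2b5 to 1.29-fold for Eef1g. Roles were assigned from the gene symbol, and not each member of a role need share its function. By role the rises comprised 7 of 14 eIF3 subunits, 3 of 5 eIF2B subunits, 1 of 5 tested eIF2 genes and their alternatives, 2 of 4 among eIF5, eIF5A, eIF5B and eIF6, and 1 of 5 eEF1 genes. None of the 5 eIF1 genes, 4 eIF2 alpha kinases, 11 eIF4 genes, 4 eIF4E-binding proteins or 6 modifying enzymes was called, nor Eef2, and by DESeq2 the called members numbered 19, all higher (7.38% of all genes), and included Eif4a1 and Eef2. The count fell to 7 without NCD control 1, 8 without NCD metformin 2 or HFD metformin 3, and 9 without HFD control 3, and was 9 without both NCD control 3 and HFD metformin 4. With scaling by library size alone 6 members were called higher and 1, Eif2ak4, lower. With a trend in coding length and GC content removed, an alternative chosen after seeing the data, 11 members were called, 9 of them among the 14, while Eif2b2, Eif3f, Eif3g, Eif3k and Eif5a lost their call and Eef2 and Eif2b3 gained one. Apart from DESeq2, shares of all genes called under these settings are not given here. A change particular to the members cannot be read from these counts. Of the 14, Eef1g, Eif2s1 and Eif3m are among the genes of uncertain counts and 11 are not. Among those 11, Eif3h and Eif5a had 45.97% and 41.38% of their coding words in transcripts that the files do not list, under the threshold of 50%.

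**Figure D2:**
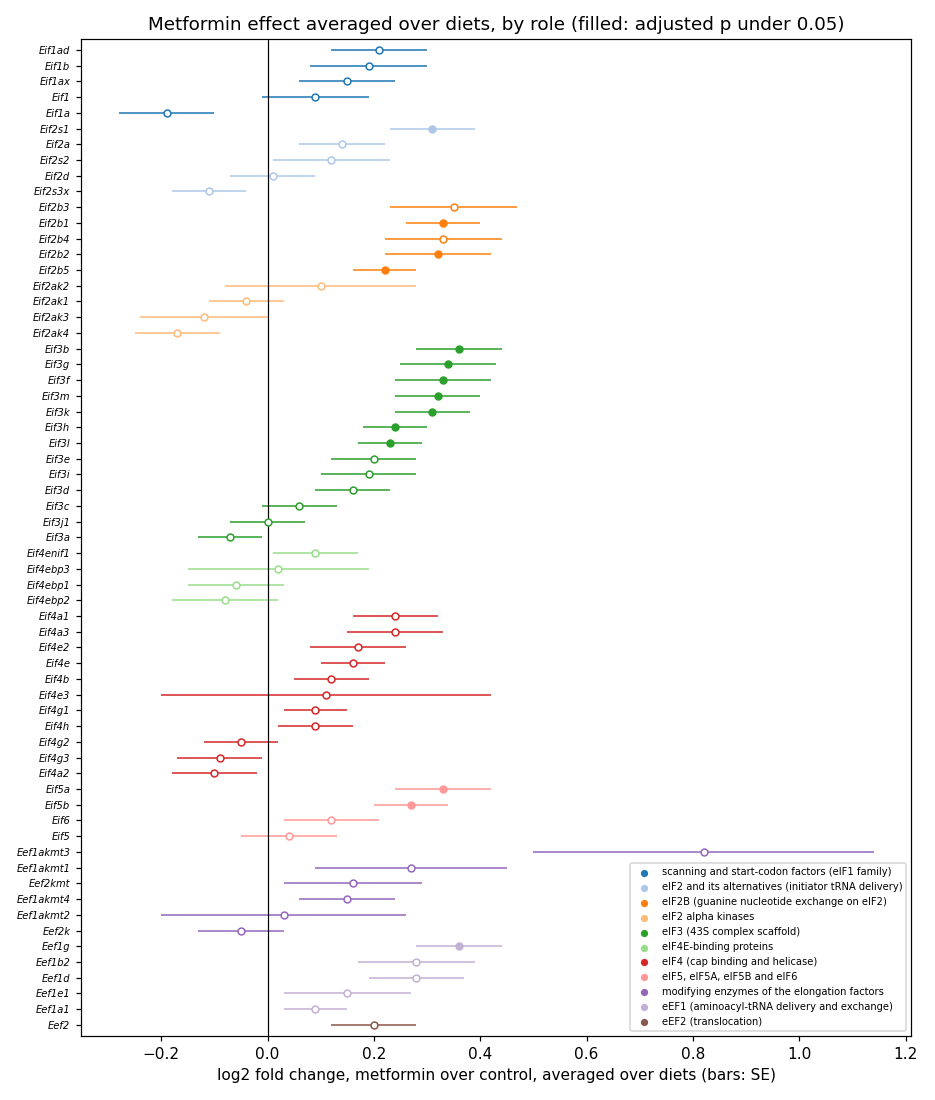
Log2 fold change (metformin over control, averaged over diets) with its SE for 63 tested members by role, filled where the adjusted p is under 0.05; Eif3j2, a near-copy of Eif3j1, is left out for its SE of 0.80. The 14 filled points all lie right of 0 and 7 of them are eIF3 subunits.

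The eIF3 subunits made up the largest group. Eif3b, an RNA-binding scaffold subunit, had 69.1, 71.8, 78.9 and 85.0 CPM in NCD control against 99.7, 103, 105 and 93.3 in NCD metformin. On HFD it had 75.9, 74.7, 73.4 and 55.3 CPM without and 87.6, 95.7, 87.0 and 81.0 with metformin. The groups did not overlap on either diet, and Eif3b rose by 0.36 ± 0.08 in log2 averaged over diets (SE, adjusted p = 0.00905, edgeR). Eif3k, a small subunit at the edge of the complex, had 30.3, 32.2, 30.9 and 28.5 CPM in NCD control, and 35.4, 39.8, 33.8 and 35.3 with metformin on NCD. With HFD it had 34.2, 32.2, 28.6 and 25.8 CPM in control and 36.8, 38.5, 44.7 and 37.5 in metformin. Here too all metformin libraries lay above all controls of the same diet (log2 fold change 0.31 ± 0.07, adjusted p = 0.0136, edgeR).

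Eif3h, a subunit of the structural core, had 62.0, 63.8, 63.8 and 61.3 CPM in NCD control, 71.0, 79.0, 67.8 and 71.7 with metformin on NCD, 64.7, 59.9, 62.3 and 56.6 as HFD control and 74.1, 77.0, 72.1 and 70.8 with metformin on HFD. The spread within groups was small and the metformin libraries again stood above their controls (0.24 ± 0.06, adjusted p = 0.0144, edgeR). Eif3l, which pairs with Eif3k, rose by 0.23 ± 0.06 (adjusted p = 0.0198), from a mean of 44.2 to 55.5 CPM on NCD and from 45.5 to 50.1 on HFD. The core subunits Eif3m and Eif3f and the RNA-binding subunit Eif3g rose by 0.32 ± 0.08, 0.33 ± 0.09 and 0.34 ± 0.09 in log2 (adjusted p = 0.0224, 0.0295 and 0.0249, edgeR). Eif3b, Eif3h, Eif3k and Eif3l were called without each single library in turn. With counts rebuilt from TPM the adjusted p of Eif3k was 0.293, and with scaling by library size alone those of Eif3h and Eif3l were 0.0827 and 0.149. Eif3l and Eif3m also lost their calls without both NCD control 3 and HFD metformin 4, and Eif3m with scaling by library size alone (adjusted p of Eif3m up to 0.0556). Eif3m lost its call without NCD control 1 or HFD metformin 3 (adjusted p up to 0.0549), Eif3f without NCD control 2, NCD metformin 2, HFD control 3 or HFD metformin 2 (up to 0.0579) or with scaling by library size alone (0.0876), and Eif3g without NCD control 1, NCD metformin 2, HFD control 3, HFD metformin 2 or HFD metformin 3 (up to 0.0569).

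Not all eIF3 genes moved together. Eif3a, the largest subunit and the one the complex is built on, had 193, 215, 192 and 183 CPM in NCD control, and 205, 178, 158 and 174 with metformin on NCD. The means on HFD were 215 and 214 CPM. Its log2 fold change was -0.07 ± 0.06 (adjusted p = 0.529, edgeR), and those of Eif3c and Eif3j1 were 0.06 ± 0.07 and 0.00 ± 0.07. In TPM the ratio of Eif3g to Eif3a was 0.771 ± 0.0942 on NCD alone and 0.938 ± 0.0916 on NCD with metformin. On HFD it was 0.692 ± 0.0675 in controls and 0.869 ± 0.0826 with metformin. This ratio thus had a higher mean with metformin on both diets, and the ranges of the groups overlapped on each. Eif3j1 and Eif3j2 share 99.74% of their coding 31-base words, so their counts are uncertain.

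The eIF2B complex, which recharges eIF2 with GTP, had all 5 subunits positive and all 5 with an unadjusted p under 0.05, and 3 passed the adjusted threshold. Eif2b1, its alpha subunit, had 9.70, 10, 10.3 and 10.2 CPM in NCD control, 15.4, 11.6, 15.1 and 13.0 with metformin on NCD, 10.6, 10.2, 11 and 10.3 as HFD control and 11.6, 11.8, 12.6 and 12.5 with metformin on HFD. The control libraries were closely grouped and all 8 metformin libraries lay above them. Averaged over diets Eif2b1 rose by 0.33 ± 0.07 in log2, with the lowest adjusted p of the members at 0.00781 (edgeR). In TPM a listed transcript of 135 coding bases took up to 55.2% of the gene's TPM in an NCD control library and up to 47.7% in an HFD metformin library. With counts rebuilt from TPM instead, its log2 fold change on NCD was -0.09 (adjusted p = 0.866, edgeR) and the averaged adjusted p was 0.518.

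Eif2b5, the catalytic epsilon subunit, had 33.5, 36.1, 34.3 and 36.6 CPM in NCD control against 41.7, 45.9, 44.8 and 42.3 in NCD metformin. On HFD the values were 42.4, 36.7, 35.6 and 34.4 CPM against 40.1, 40.4, 41.8 and 41.5. The groups were apart on NCD, while on HFD the control library with the highest value lay above all metformin libraries, and Eif2b5 rose by 0.22 ± 0.06 averaged over diets (adjusted p = 0.0241, edgeR). Eif2b2, the beta subunit, stood at the threshold (0.32 ± 0.10, adjusted p = 0.0495, edgeR) and lost its call in 20 of 24 alternative analyses, among them without any one library other than HFD control 1 or 2, with an adjusted p of up to 0.108. Eif2b3 and Eif2b4, the gamma and delta subunits, had log2 fold changes of 0.35 ± 0.12 and 0.33 ± 0.11 (adjusted p = 0.0703 and 0.0596, edgeR). The call of Eif2b5 was lost without NCD control 1, NCD metformin 2 or HFD control 3 (adjusted p up to 0.0560), with counts rebuilt from TPM, or with scaling by library size alone (0.0988). It was also lost without both NCD control 3 and HFD metformin 4.

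Of the eIF2 subunits, Eif2s1 was the one called. It had 9.64, 10.5, 11.1 and 12.2 CPM in NCD control, and 14.4, 16.1, 17.1 and 17.4 with metformin on NCD. On HFD it had 14.3, 12.3, 11.8 and 10.8 CPM in control and 10.8, 12.4, 13.7 and 13.9 in metformin. The groups were clearly apart on NCD and overlapped on HFD, and the average over diets was 0.31 ± 0.08 (adjusted p = 0.0234, edgeR). Of its coding words 56.75% occur in transcripts that the files do not list, so its counts are uncertain. This call was lost without NCD control 1, HFD metformin 3 or HFD control 4. It was also lost with scaling by library size alone and without both NCD control 3 and HFD metformin 4. The adjusted p was at most 0.0654 over all alternatives. Eif2s2, the beta subunit, had a log2 fold change of 0.12 ± 0.11, and Eif2s3x, the gamma subunit, of -0.11 ± 0.07. For Eif2s2 and Eif2s3x these shares were 83.54% and 93.55%.

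The 4 kinases that phosphorylate the serine shown above had a median log2 fold change of -0.08, and none was called. Eif2ak4 (GCN2), the kinase that senses uncharged tRNA, had 13.2, 12.7, 12.5 and 14 CPM in NCD control against 12, 11.2, 9.14 and 10 in NCD metformin. It was the single member whose NCD metformin libraries all lay below the controls, and its log2 fold change there was -0.30 ± 0.11 (adjusted p = 0.0919, edgeR). On HFD the means were 13.1 and 12.9 CPM. Eif2ak1, Eif2ak2 and Eif2ak3 (PERK), which respond to heme shortage, double-stranded RNA and stress in the endoplasmic reticulum, had averaged values of -0.04 ± 0.07, 0.10 ± 0.18 and -0.12 ± 0.12.

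Among the late initiation factors Eif5a and Eif5b rose. Eif5a had 49.7, 51.1, 59.8 and 57.3 CPM in NCD control, 73.4, 78.7, 73.0 and 67.3 with metformin on NCD, 67.9, 54.7, 52.5 and 43.8 as HFD control and 63.4, 60.3, 74.8 and 60.7 with metformin on HFD. The groups were apart on NCD, and on HFD control 1 reached into the metformin range. The average was 0.33 ± 0.09 (adjusted p = 0.0242, edgeR), and the call was lost without NCD control 1, NCD metformin 2 or HFD metformin 3 (adjusted p up to 0.0573), or with the trend in coding length and GC removed (0.0702). Eif5b, the GTPase of subunit joining, had means of 86.2 and 104 CPM on NCD and 92.6 and 111 on HFD, and rose by 0.27 ± 0.07 (adjusted p = 0.0257, edgeR). The call of Eif5b was lost without NCD control 1 or 4, NCD metformin 1 or 2, HFD control 3 or 4, or HFD metformin 2 or 3 (adjusted p up to 0.0607), or with scaling by library size alone (0.0720). Eif5, which triggers GTP hydrolysis by eIF2, and Eif6, which keeps free large subunits apart, had values of 0.04 ± 0.09 and 0.12 ± 0.09.

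In elongation Eef1g, the gamma subunit of the eEF1B exchange factor, was the one gene called. It had 188, 210, 215 and 195 CPM in NCD control, 267, 286, 248 and 226 with metformin on NCD, 230, 228, 192 and 162 as HFD control and 253, 240, 293 and 273 with metformin on HFD. All metformin libraries lay above the controls of their diet, and Eef1g rose by 0.36 ± 0.08 (adjusted p = 0.0129, edgeR), a call kept in all 24 alternatives run. Eef1b2 and Eef1d, the exchange subunits beside it, had 0.28 ± 0.11 and 0.28 ± 0.09 (adjusted p = 0.121 and 0.0594, edgeR). Eef1a1, the factor that they recharge, had means of 2060 CPM (NCD control), 2109 (NCD metformin), 2134 (HFD control) and 2368 (HFD metformin), with a log2 fold change of 0.09 ± 0.06 (adjusted p = 0.3, edgeR). Of the coding words of Eef1g 95.02% and of Eef1a1 88.01% occur in transcripts that the files do not list, so reads of those copies could add to both. Eef2 had 0.20 ± 0.08 (adjusted p = 0.0948) and its kinase Eef2k -0.05 ± 0.08.

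The eIF4 genes, grouped by symbol, had 0 of 11 called in the average over diets and 3 with an unadjusted p under 0.05, a share near that of all genes. Eif4a1, the helicase that unwinds the 5′ leader, had 147, 151, 152 and 171 CPM in NCD control, and 170, 199, 198 and 230 with metformin on NCD, and an averaged log2 fold change of 0.24 ± 0.08 (adjusted p = 0.0631, edgeR). Its close relative Eif4a2 had -0.10 ± 0.08. Of the coding words of Eif4a1 92.98% and of Eif4a2 35.84% occur in transcripts that the files do not list, so the counts of Eif4a1 and their ratio are uncertain. The ratio of Eif4a1 to Eif4a2 in TPM was 1.36 ± 0.272 in NCD control and 1.87 ± 0.181 in NCD metformin, with ranges of 1.13 to 1.76 and 1.72 to 2.13 that overlapped. Eif4g1 had 0.09 ± 0.06, Eif4b, a helper of the helicase, 0.12 ± 0.07, and Eif4g2 -0.05 ± 0.07. The repressors Eif4ebp1 and Eif4ebp2 had -0.06 ± 0.09 and -0.08 ± 0.10, Eif1 had 0.09 ± 0.10 and Eif1ax, a scanning factor, 0.15 ± 0.09.

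**Figure D3:**
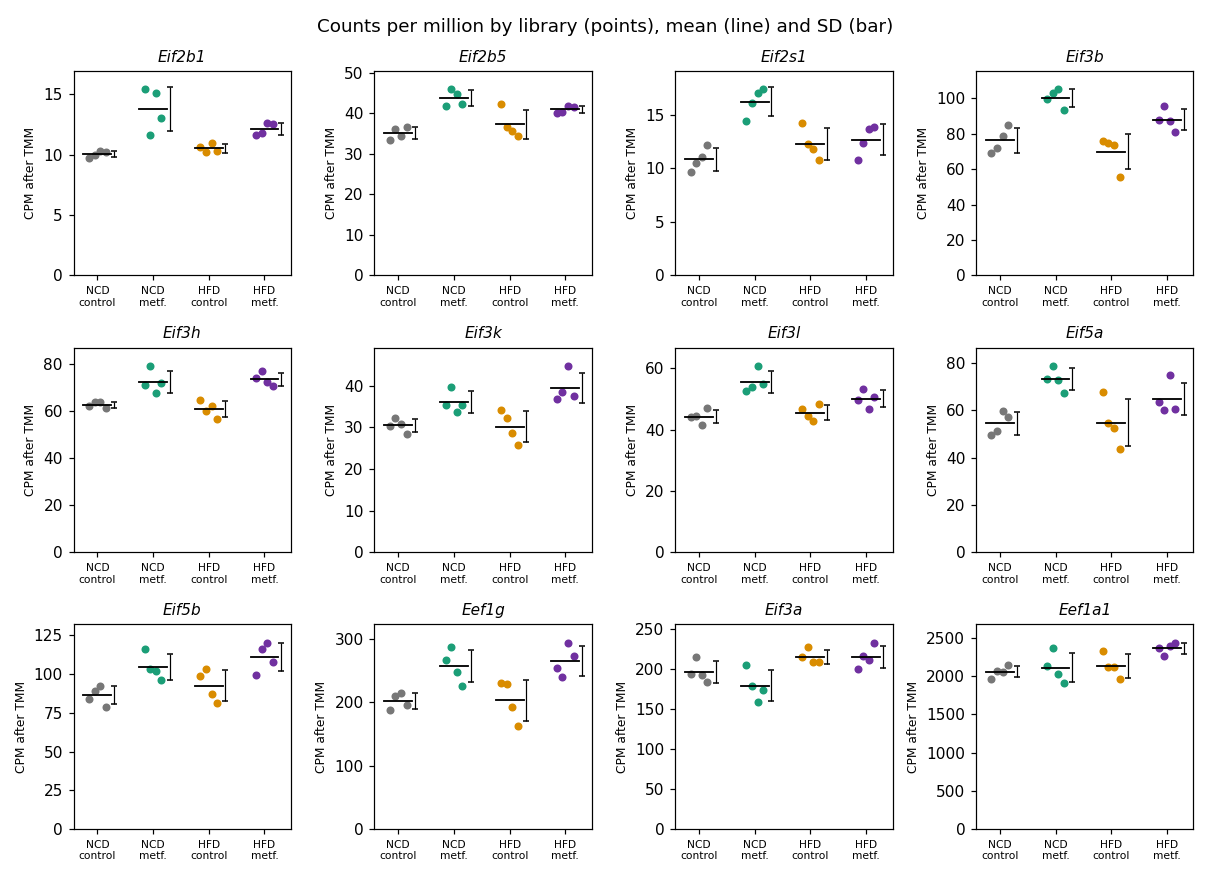
CPM after TMM scaling for 12 members in each of the 16 libraries, with the group mean (line) and SD (bar) and axes from 0. The metformin libraries of Eif2b1, Eif3b, Eif3h, Eif3k and Eef1g lie above all controls of the same diet, while those of Eif3a and Eef1a1 overlap their controls.

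On NCD alone metformin raised 9 of 64 members and lowered 0 (edgeR), where 4.01% of all genes were called higher and 6.03% lower. These were Eif2s1, Eif2b1, Eif2b3, Eif2b5, Eif3b, Eif3l, Eif3m, Eif4e and Eif5a. The members' median was 0.19 and that of all genes 0.00, and 49 members were positive. Among these 9 called members Eif2b3 showed the largest rise, with 2.54, 3.32, 3.52 and 3.61 CPM in NCD control against 5.79, 5.11, 5.62 and 5.49 in NCD metformin. The groups were far apart relative to their spread, and the rise was 0.76 ± 0.17 in log2, or 1.69-fold (adjusted p = 0.0173, edgeR; 0.0540 without NCD control 1). Eif2s1 rose by 0.58 ± 0.11, or 1.5-fold (adjusted p = 0.0104), and was called in all 25 alternatives run, with the uncertainty of its counts given above.

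Eif4e, the cap-binding protein itself, had 10, 9.85, 9.33 and 10.3 CPM in NCD control, and 12.3, 13.3, 11.6 and 11.6 with metformin on NCD. The groups did not overlap, and Eif4e rose by 0.31 ± 0.09 (adjusted p = 0.0376, edgeR), a call lost in 11 of 25 alternatives with an adjusted p of up to 0.193. On HFD its means were 10 and 10.1 CPM. Of its coding words 72.69% occur in transcripts that the files do not list, so its counts are uncertain. In all, 21 of 64 members had NCD metformin libraries wholly above the controls, against 8.73% of all genes, and 1 of 64 wholly below, against 9.82%. The 9 calls fell to 2 without NCD control 1, to 3 without NCD control 2 or NCD metformin 2, to 4 without NCD control 3 or NCD metformin 3, and to 3 without both NCD control 3 and HFD metformin 4. Eif2s1 and Eif2b1 were called on NCD without each single library in turn, and 6 of the 9 lost their call in 7 to 11 of the alternatives. By DESeq2 16 members were called, all higher (6.25% of all genes), and with scaling by library size alone 4 were called higher and Eif2ak4 lower. For the refits on NCD other than DESeq2, shares of all genes called are not given here.

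On HFD 0 of 64 members were called for metformin by edgeR, where 0.168% of all genes were called in either direction. By DESeq2 2 members, Eif3h and Eif3k, were called higher (1.12% of all genes), and 14 (21.9%) had an unadjusted p under 0.05 in edgeR, 13 of them positive, against 12.8% of all genes. The lowest adjusted p was 0.136, for Eif3k, whose log2 fold change was 0.38 ± 0.10. Eef1g had 0.38 ± 0.12, Eif3b 0.33 ± 0.11 and Eif3h 0.27 ± 0.08 (adjusted p = 0.187, 0.206 and 0.164, edgeR). The median over members was 0.11, and 49 of 64 were positive. Metformin libraries lay wholly above the controls for 8 members (3.72% of all genes), Eef1g, Eef2, Eif1ad, Eif2b1, Eif3b, Eif3f, Eif3h and Eif3k. Eif1a, with 6.11, 6.55, 6.33 and 6.36 CPM in HFD control and 5, 4.70, 3.53 and 5.67 in HFD metformin, lay wholly below (2.93% of all genes), and 18.13% of its coding words are shared with other listed genes.

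HFD control 4, the shallowest library, had the lowest value of its group in 41 of 64 tested members and in 11 of the 14 that rose, and HFD control 1 with 39075290 counts had the highest in 36 of 64. Without HFD control 4 the members' median for metformin on HFD was 0.07 and 41 were positive. Without HFD control 1 it was 0.18 and 51 were positive. The part of depth in these values was not tested.

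Of all members 5 had metformin libraries wholly above the controls on both diets, Eef1g, Eif2b1, Eif3b, Eif3h and Eif3k, against 1.38% of all genes. The difference between the diets was tested as an interaction. It was called for 0 of 64 members and for 0% of all genes, by edgeR, with 5 members (7.81%) and 1243 genes (9.94%) at an unadjusted p under 0.05, and for 0 members by DESeq2. The lowest adjusted p values were 0.355 for Eif2b3, whose metformin effect was -0.07 ± 0.17 on HFD, and 0.356 for Eif2s1, with 0.04 ± 0.11 on HFD. For these genes the effects on NCD and HFD were far apart in size, and the difference did not pass the test.

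**Figure D4:**
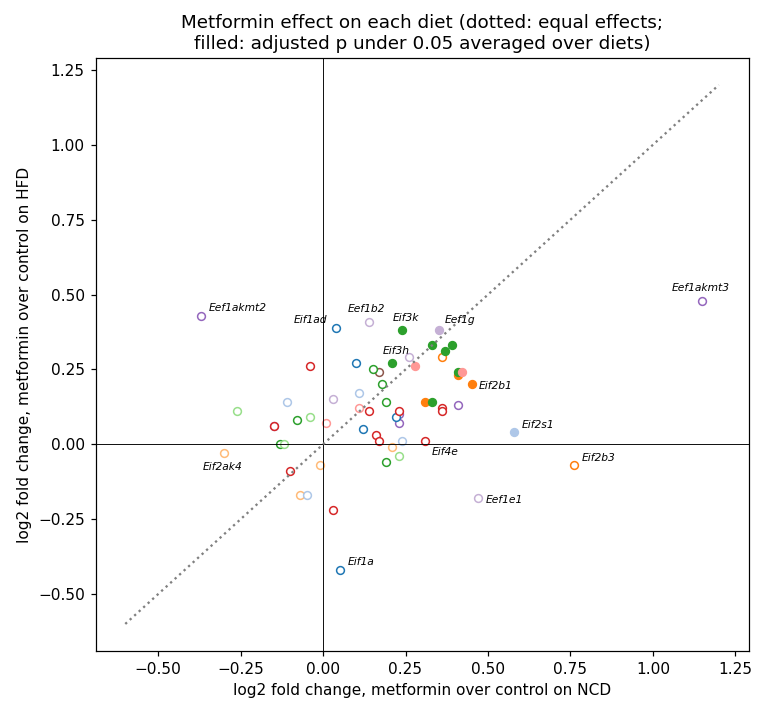
Log2 fold change of 63 tested members for metformin over control on NCD (x axis) and on HFD (y axis), which share no libraries, with role colours as in the plot of averaged effects; filled points were called in the average over diets and Eif3j2 is left out. Eif2b3 and Eif2s1 lie far right near 0 on the y axis, and Eef1g and Eif3k lie near 0.38 on the y axis.

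No member was called for diet alone by edgeR with TMM scaling. HFD against NCD gave 0 of 64 called without metformin (0.0640% of all genes; 1 member with an unadjusted p under 0.05), 0 with metformin (2.36%; 12 members) and 0 averaged over treatments (0.936%; 5 members), by edgeR. The shares of all genes with an unadjusted p under 0.05 were 7.04%, 19.2% and 17.4%, against 1.56%, 18.8% and 7.81% of members. By DESeq2 the counts were 0, 1 (Eif2b3, lower, against 1.60% of all genes) and 0. Without HFD metformin 3, or with a term for the gap in title numbers, the test with metformin also called Eif2b3 lower. With the trend in coding length and GC removed, an alternative added after seeing the data, that test called Eif2b3 and Eif2s1 lower. Scaling by library size alone moved the median of all genes by -0.18 in the contrast with metformin and by -0.17 in the averaged one. Then 6 of 64 and 12 of 64 members were called, all lower, where 4.61% and 12.4% of all genes were called lower. The members' medians under that scaling were -0.21 and -0.18, and the part of the scaling in these calls was not tested.

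With metformin given, all 5 eIF2B genes and all 5 eIF1 genes had a negative HFD value, though Eif2b1 had 0.12 with counts rebuilt from TPM and Eif1ad 0.01 with a trend in coding length and GC removed. Eif2b3 had -0.62 ± 0.17, Eif2s1 -0.35 ± 0.11 and Eif4e -0.27 ± 0.09 (adjusted p = 0.0636, 0.0962 and 0.109, edgeR). These 3 are genes that rose with metformin on NCD, and both contrasts use the same NCD metformin libraries. Averaged over treatments, Eif3a had 0.20 ± 0.06 (adjusted p = 0.139), Eef2k 0.20 ± 0.08 (0.189) and Eif1ad -0.23 ± 0.09 (0.200, edgeR). Eif1ad, an eIF1A-like protein, had 3.58, 3.51, 3.24 and 3.31 CPM in NCD control and 2.84, 2.75, 2.50 and 2.12 in HFD control, which did not overlap, as was so for Eif1b and for 2.25% of all genes. With metformin its means were 3.51 and 3.38 CPM.

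Pathways around the factors were read from lists of genes, in the metformin effect averaged over diets (edgeR), where 5.82% of all genes were called higher and 5.57% lower. The mitochondrial translation factors, which serve the separate ribosomes of that organelle, had 5 of 12 tested genes called higher and 0 lower, with a median of 0.21. The elongation factors Gfm1 (0.55 ± 0.11) and Tufm (0.40 ± 0.08), the recycling factor Gfm2 (0.23 ± 0.06) and Mrpl58, which rescues stalled mitochondrial ribosomes (0.42 ± 0.11), rose, as did Tsfm (0.41 ± 0.12), named here after its value was seen. In the same libraries the 13 genes of the mitochondrial genome took 2.39 ± 0.231% of counts (NCD control), 3.51 ± 0.190% (NCD metformin), 2.18 ± 0.180% (HFD control) and 2.80 ± 0.188% (HFD metformin). Genes that make hypusine and diphthamide, the modified residues of eIF5A and eEF2, had 2 of 12 called, both higher, with a median of 0.24. These were Odc1, the first enzyme of the polyamines from which hypusine is made (0.71 ± 0.18, adjusted p = 0.0212), and Dph3 (0.48 ± 0.14, adjusted p = 0.0402).

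Of 22 genes that assist initiation at the cap and poly(A) tail, 4 were called, all higher, with a median of 0.05. They were Denr, which recycles subunits after termination (0.38 ± 0.08), the nuclear cap-binding gene Ncbp2 (0.41 ± 0.10), Tpt1 (0.35 ± 0.09) and Abcf1 (0.24 ± 0.07). The termination and rescue list had 0 of 10 called, also on NCD and on HFD, and a median of 0.08. The mTORC1 list had 2 of 22 higher, Rps6, the small-subunit protein phosphorylated downstream of mTORC1 (0.34 ± 0.07), and Rheb, the GTPase that activates it (0.23 ± 0.07). It had 3 lower: Deptor, an inhibitor bound to the complex (-0.62 ± 0.14), Tsc1, part of the complex that turns Rheb off (-0.40 ± 0.10), and Sesn2, a stress-induced inhibitor (-0.73 ± 0.20). The mTORC1 list holds activators and inhibitors, and its median averaged over diets was -0.07. For metformin on NCD alone this list had 1 of 22 called higher and 7 lower, against 4.01% and 6.03% of all genes. The 7 include Deptor, Tsc1 and Sesn2, and the others on this list are not named here. For HFD against NCD with metformin it had 3 higher (1.86% of all genes) and 0 lower. The eIF2 phosphatase and ATF4 target list, read out when eIF2 alpha is phosphorylated, had 0 higher and 2 of 17 lower, Sesn2 and Nupr1 (-0.64 ± 0.20), with a median of -0.30. Over 24 alternatives the calls of Dph3, Nupr1, Abcf1, Gfm2, Sesn2, Tsc1 and Mrpl58 were lost in 17, 16, 13, 9, 6, 5 and 5, and those of Denr and Deptor in 0. On HFD alone none of these 6 lists had a called gene by edgeR. Sesn2 is on both of the last lists, and Rheb was named after its value was seen.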

How the data were processed

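The deposited files give an estimated count and a TPM value per transcript for 16 libraries, per the file headers, which are Salmon's. The deposited TPM divides by effective length and by the sum over all listed transcripts. Salmon 1.3.0, DESeq2 1.28.1 and GRCm38.p6 are named per the submitters' processing notes, and the sources used here give no strand or bias options. Listed lengths are coding lengths within 3 bases for 56929 of the 56929 transcripts whose version is that of GENCODE M21, so untranslated regions are not measured.

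Counts of 57452 of 58204 transcripts were summed to genes and rounded; the other 752 held 0.165 to 0.218% of a library. All 12506 genes passing filterByExpr were fitted in edgeR 4.0.16 (R 4.3.3) with 4 group means, TMM scaling and the quasi-likelihood test, two-sided, with Benjamini-Hochberg adjustment and a threshold of 0.05. The fit had 12 residual degrees of freedom. The script was tested on simulated data. Contrasts and levels by library use CPM, and levels between genes use TPM. DESeq2 1.42.0 and other scalings were alternatives. The lowest chi-square per degree of freedom between any pair of libraries was 12.54. Replicate numbers follow accession order. A low value has a floor of 3 counts, 0.077 to 0.347 CPM.

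The members, roles and gene lists were chosen with earlier results of these data known. Named are members called in any contrast, the lowest p of each role, a fixed set of 24 genes, the 10 of highest TPM, and up to 4 genes of each other list. Genes with over 50% of their coding 31-base words in other listed genes, or over 50% in transcripts not listed, are called uncertain. Promoters are from RefSeq, matched for 52 members.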

Additional observations from a re-analysis of the deposited data

Results flagged for a closer look

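In 164 groups of 4 libraries of the named members, a single library stood far from the other 3 in CPM in 7 cases, and chance alone flags about 1 in 20 groups. Eef1a2, the eEF1A gene of muscle and neurons, had 25.1 CPM in NCD control 3, where the other NCD controls had at most 0.231, and that library held the highest muscle marker level given above. Eef1a2 also had 1.23 CPM in HFD metformin 1 and 0.167 CPM in NCD metformin 2, with 0 in the rest of each group. Eif5 had 47.1 CPM in NCD control 1 and 67.2 to 70.8 in the other NCD controls. Eif2ak3 had 12.1 CPM in HFD control 2 and 16.8 to 17.6 in the others of its group. Eif3b had 55.3 CPM in HFD control 4, the shallowest library, and 73.4 to 75.9 in the other HFD controls. Eif4b had 146 CPM in HFD metformin 3 and 161 to 163 in the rest.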

How the results depend on the processing

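The number of members called was recomputed under other settings, and the cause of a change was not tested. Most of these counts stand without the share of all genes called, so a change particular to the members cannot be read from them. For metformin on NCD (9) it was 5 with library size alone, 16 by DESeq2, 4 with counts rebuilt from TPM, and, chosen after seeing the data, 3 without both NCD control 3 and HFD metformin 4. For metformin averaged over diets (14) it was 7 with library size alone and 9 without those libraries. For HFD averaged over treatments it was 12 with library size alone. For metformin on HFD it was 2 by DESeq2. For HFD with metformin it was 6 with library size alone, 1 by DESeq2, 1 with a term for the gap in title numbers and 2 with a trend in coding length and GC removed, added after seeing the data. Leaving out 1 library at a time gave 2 to 13 calls for metformin on NCD, 7 to 17 averaged over diets and 0 to 1 for HFD with metformin, and 0 for the other contrasts. The summed level ranged from 2673 to 2762, 2661 to 2771, 2376 to 2493 and 2328 to 2498 TPM for NCD control, NCD metformin, HFD control and HFD metformin, and was 6748, 7302, 6942 and 7744 as CPM. Of the called values of named members 1 turned in sign, that of Eif2b1 on NCD, with -0.09 when counts were rebuilt from TPM. No paired analysis was possible because no label pairs libraries across groups. Below 3 counts, or 0.077 to 0.347 CPM by library, depth does not allow a level to be told from 0.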
